A study of Mus musculus with 8 samples.

Results

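Expression of 9 genes of cellular senescence and the p53 response was examined in back-skin epidermis of 22-month-old mice. The set was defined by symbol and comprised the cell cycle inhibitor genes Cdkn1a, Cdkn2a and Cdkn2b, the p53 gene Trp53, the p53 target genes Mdm2, Ccng1, Bax and Zmat3, and Gdf15, which encodes a secreted stress factor. All 9 were found by symbol and identifier among the 49315 genes of the count files. Read counts came from RNA sequencing of 5 libraries from Tgfa knockout (KO) mice and 3 from wild-type (WT) mice, and the labels name no other allele, treatment or strain. The EGF receptor ligand TGF-alpha is the product of Tgfa, and the series concerns hair follicles and hair loss in ageing mice without it. The labels describe the material as epidermis and as keratinocytes, do not say how the knockout allele was made or in which cells the gene was lost, and do not say whether each library came from a separate animal, so that p-values measure the spread between these libraries.

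The p53 protein is a transcription factor held at low levels by MDM2, which marks it for degradation and is itself a p53 target, so the pair forms a feedback loop. When p53 is active it raises genes that stop the cell cycle, such as Cdkn1a, whose product p21 inhibits cyclin-dependent kinases (CDKs), and genes that promote cell death, such as Bax. The Cdkn2a and Cdkn2b genes are neighbours and encode inhibitors of the kinases CDK4 and CDK6, and Cdkn2a also encodes p19ARF, which inhibits MDM2. Expression of Cdkn2a rises with age in many mouse tissues and is widely used as a mark of senescent cells. Much of the control of p53 acts on the protein, which counts of RNA do not measure.

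On GRCm38, the build whose annotation the gene positions of the files follow, Cdkn2a (ENSMUSG00000044303, chr4:89274471-89294653) and Cdkn2b (ENSMUSG00000073802, chr4:89306289-89311032) lie next to each other on the minus strand of chromosome 4. Trp53 (ENSMUSG00000059552, chr11:69580359-69591873, plus strand) and Ccng1 (ENSMUSG00000020326, chr11:40748552-40755311, minus strand) are on chromosome 11. Cdkn1a (ENSMUSG00000023067) spans chr17:29090979-29100722 on the plus strand. Mdm2 (ENSMUSG00000020184) spans chr10:117688888-117710758, Bax (ENSMUSG00000003873) chr7:45461697-45466898, Zmat3 (ENSMUSG00000027663) chr3:32334792-32366014 and Gdf15 (ENSMUSG00000038508) chr8:70629393-70632456, all on the minus strand. Values count reads over all exons of each gene.

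Library totals ranged from 5313552 to 17417500 counts in KO and from 12968728 to 18292303 in WT, and 3 libraries stood apart from the others. KO replicate 2 was the shallowest, and olfactory and vomeronasal receptor genes, which should be silent in skin, took 4.54 counts per kb of exon in it, against 1.83 in WT replicate 3, 0.929 in WT replicate 2 and 0.122 to 0.258 in the remaining libraries. Malat1, a nuclear RNA, took 4.88% of counts in the library labelled KO replicate 1 and 6.61% in WT replicate 3, against 1.34% to 1.84% in the remaining libraries. The targeted gene itself, Tgfa, was present in every library and reached 132 CPM (counts scaled to a library of 1000000) in the library labelled KO replicate 1. The 4 other KO libraries had 34.4 to 70.1 CPM, against 85.1 to 112 CPM in WT. That library therefore goes against its label, although a gene-level count includes any exon the targeted allele still transcribes. The names of KO replicates 3 to 5 carry the ending bl and those of KO replicates 1 and 2 and of every WT library the ending br, and the labels give no meaning for it. Summed CPM of 6 basal keratinocyte markers was 5253 to 12877 in KO and 3821 to 12578 in WT, and no marker of that list or of the 6 suprabasal markers was at 0.

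Per exon length, Cdkn1a was the most abundant of the set and Cdkn2a and Gdf15 were close to the limit of detection. Levels were compared between genes as TPM, which divide counts by exon length. Over the 8 libraries Cdkn1a averaged 308 ± 132 TPM (SD), and this level lay above that of 99.5% of genes with any count. Mdm2 followed at 66.6 ± 26.5 TPM, Trp53 at 46.2 ± 21 TPM, Cdkn2b at 36.9 ± 16.9 TPM and Ccng1 at 33.1 ± 11.1 TPM. Zmat3 averaged 22 ± 9.25 TPM and Bax 7.84 ± 2.83 TPM. Cdkn2a and Gdf15 averaged 0.982 ± 0.763 and 0.507 ± 0.826 TPM. The order was not sharp in the middle: Cdkn1a exceeded Mdm2 in 8 of 8 libraries, but Mdm2 exceeded Trp53 in 7, Trp53 exceeded Cdkn2b in 6 and Cdkn2b exceeded Ccng1 in 5, and in those last 3 pairs the mean difference was smaller than its SD over libraries. Ccng1 was above Zmat3, Zmat3 above Bax and Bax above Cdkn2a in all 8. Cdkn2a was above Gdf15 in 5, again with a mean difference below its SD.

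**Figure D1:**
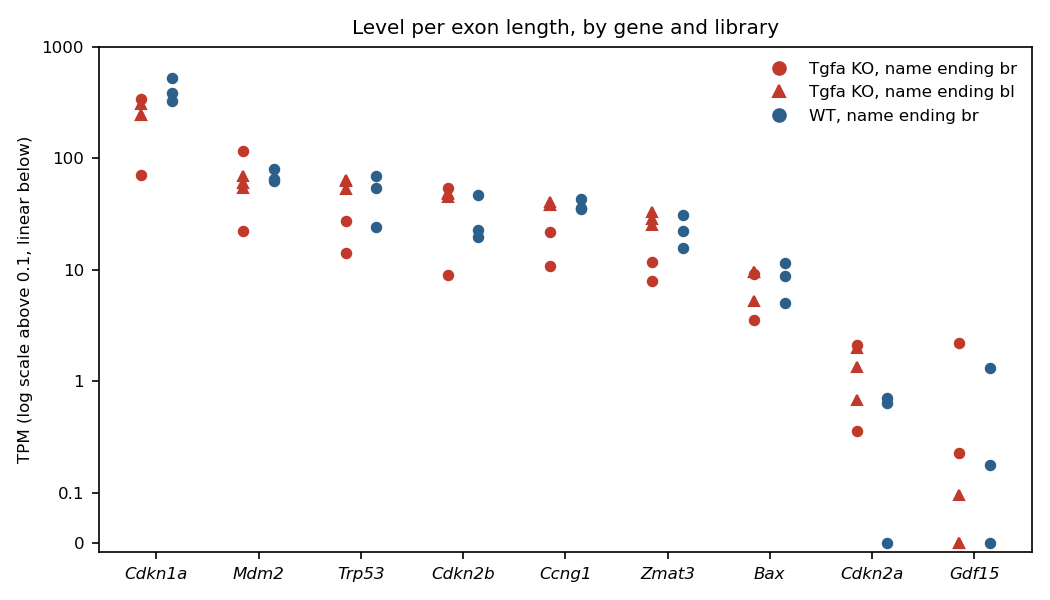
Level of each of the 9 genes in TPM (log scale above 0.1, linear below) in 5 Tgfa KO libraries (red, left of each pair) and 3 WT libraries (blue), with circles for library names ending in br and triangles for bl. Cdkn1a averages 308 TPM, Mdm2 to Zmat3 lie between 22 and 66.6 TPM on average, and Cdkn2a and Gdf15 reach 0 in some libraries.

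Cdkn1a, the gene of p21, had lower values in most KO libraries. It was at 393, 133, 193, 216 and 192 CPM in KO replicates 1 to 5, against 416, 346 and 305 CPM in WT replicates 1 to 3. KO replicates 2 to 5 were below every WT library, and the library labelled KO replicate 1, which also kept Tgfa at a WT level, lay within the WT range. The log2 fold change of KO over WT was -0.66 (SE 0.33, 95% interval -1.40 to 0.08), or 63.3% of the WT level, and did not pass the threshold in edgeR (adjusted p = 0.832). In a limma voom fit that gives each library a weight from its own scatter, Cdkn1a fell by 0.86 on the log2 scale (SE 0.18, adjusted p = 0.0181). Weights were 0.284 and 0.366 for KO replicates 1 and 2 and 0.339 for WT replicate 3, against 1.47 to 2.26 for the others. Every call of this weighted fit thus rests mostly on KO names ending in bl against WT names ending in br, and hardly separates genotype from name ending. Cdkn1a also fell in edgeR on KO replicates 3 to 5 against WT replicates 1 and 2, to 51.4% of WT (log2 fold change -0.96, SE 0.12, adjusted p = 0.00237). There every KO name ends in bl and every WT name in br, so that genotype and name ending cannot be told apart. Among libraries ending in br it was -0.45 (2 KO, 3 WT, adjusted p = 0.993). Leaving out the library labelled KO replicate 1 alone gave -0.96 for Cdkn1a (SE 0.22, edgeR adjusted p = 0.159). The sign was negative in all 19 alternative fits, with adjusted p from 0.00237 to 1. In these bulk samples, fewer cells with a transcript and less transcript per cell cannot be told apart, here and in the values that follow.

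The region just before the annotated start of Cdkn1a holds a close match to the p53 response element, as does that of Ccng1, and these promoter sequences are shown because Cdkn1a and Ccng1 are the members with such a match. Promoter windows from RefSeq on GRCm38.p6 were given for 8 of the 9 genes, and were searched for the consensus p53 response element, made of 2 adjacent sites of 10 letters, without a spacer and with at most 1 mismatch over the 20 letters. The consensus reads the same on both strands. Cdkn1a and Ccng1 were the only genes of these 8 with a match, against 29 of 32851 windows of the same length genome-wide (0.0883%), and 1 of the 23 other p53 targets with a window, Rps27l, had one. The best alignment in Mdm2 had 5 mismatches in this window and that in Bax had 3. Capitals mark the matched element, and bases within the annotated gene are left out.
Cdkn1a, chr17:29090729-29090978, GRCm38.p6, plus strand: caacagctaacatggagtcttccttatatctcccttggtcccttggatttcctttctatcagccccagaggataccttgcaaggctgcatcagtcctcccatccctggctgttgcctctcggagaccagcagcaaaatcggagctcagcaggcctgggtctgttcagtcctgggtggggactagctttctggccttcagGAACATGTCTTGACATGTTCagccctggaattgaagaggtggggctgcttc
Ccng1, chr11:40755312-40755536, GRCm38.p6, minus strand: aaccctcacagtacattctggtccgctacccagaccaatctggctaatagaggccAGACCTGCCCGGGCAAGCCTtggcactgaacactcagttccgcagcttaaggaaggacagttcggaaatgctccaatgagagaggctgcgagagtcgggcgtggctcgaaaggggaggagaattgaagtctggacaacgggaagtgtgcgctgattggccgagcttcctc
The Cdkn1a element (chr17:29090928-29090947) begins 51 bases before the first RefSeq start and 2841 bases before the second start listed for the gene. In it the first site, GAACATGTCT, matches the consensus fully and the second has 1 mismatch, whereas in Ccng1 (chr11:40755462-40755481) the first site has 1 mismatch and the second, GGGCAAGCCT, matches fully. A match is a feature of the sequence and does not show that p53 was bound here.

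Ccng1, the gene of cyclin G1, a p53-induced cyclin, differed less than Cdkn1a in edgeR on all libraries. It was at 39.8, 32.3, 50.4, 43.2 and 47.3 CPM in KO replicates 1 to 5, against 54, 50.1 and 51.7 CPM in the WT libraries. Of the KO libraries, 4 were below every WT library and KO replicate 3 was above the lowest. In edgeR KO over WT gave -0.28 on the log2 scale (SE 0.2, 95% interval -0.73 to 0.16, adjusted p = 0.899). It stayed negative in all 19 alternative fits, from -0.58 to -0.17, and passed the threshold in none of them. The WT libraries were close together for this gene (51.9 ± 1.95 CPM, SD, n = 3). The 2 lowest KO values belong to KO replicates 1 and 2, which had a high Malat1 share and the most receptor gene counts, in that order. WT replicate 3, with a Malat1 share of 6.61% and 1.83 receptor gene counts per kb, was at 51.7 CPM. The part of these library differences in the result was not tested. Against WT replicates 1 and 2, KO replicates 3 to 5 gave -0.18 (SE 0.13, edgeR adjusted p = 0.423). The order of the 2 genes turned among libraries ending in br, with -0.58 for Ccng1 and -0.45 for Cdkn1a. It also turned with the name ending as a term, with -0.52 and -0.44 (edgeR adjusted p = 0.633 and 0.750).

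**Figure D2:**
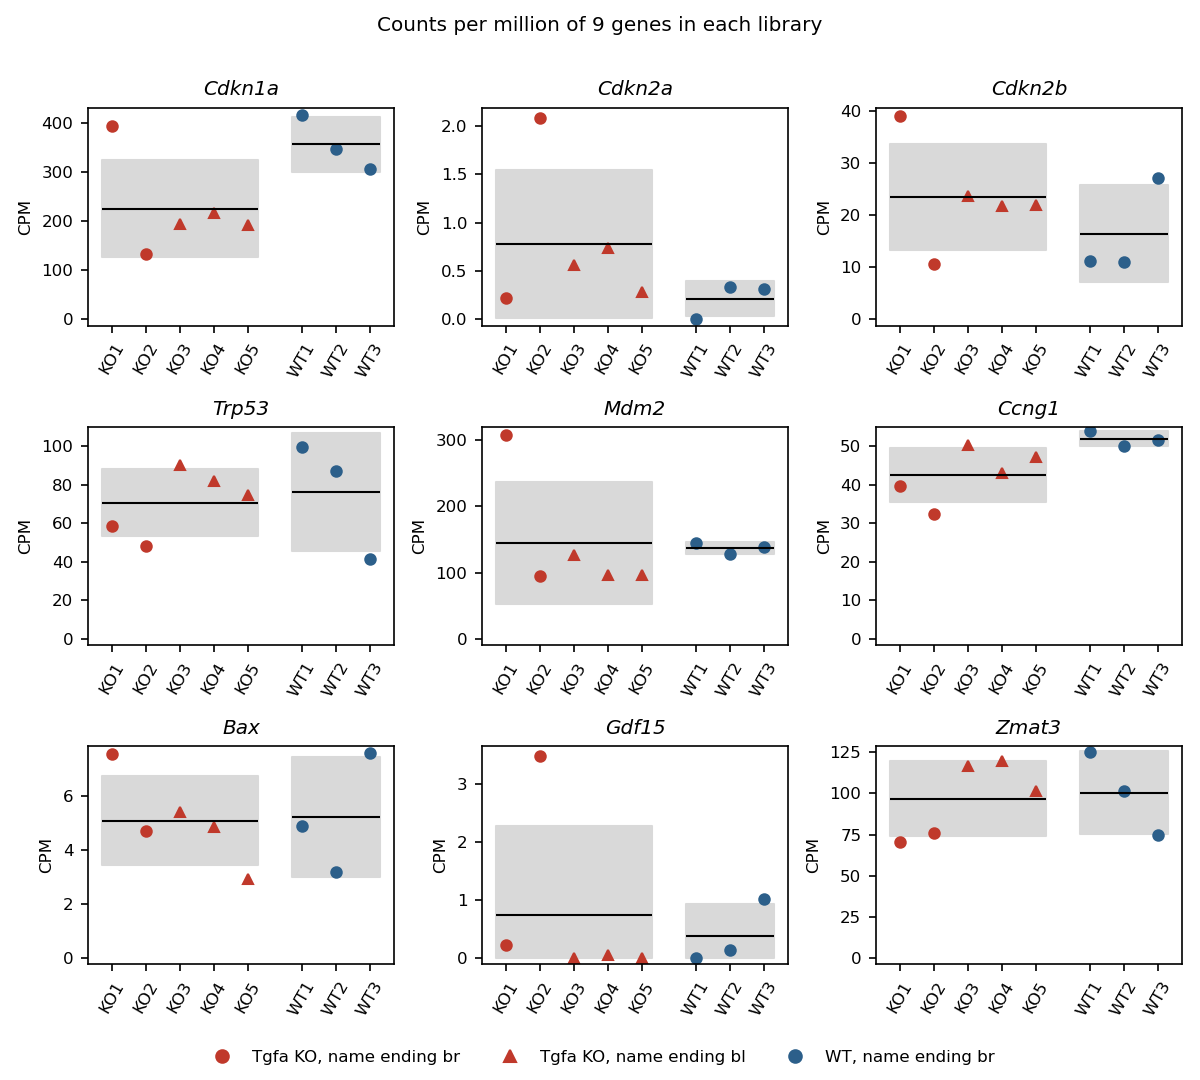
CPM of the 9 genes in KO replicates 1 to 5 (red) and WT replicates 1 to 3 (blue); circles are library names ending in br and triangles names ending in bl, lines are group means and grey bands 1 SD either side, cut at 0. Cdkn1a is at 133 to 216 CPM in KO replicates 2 to 5 and 305 to 416 in WT, and Mdm2 is at 307 CPM in the library labelled KO replicate 1 and 95.3 to 145 elsewhere.

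Mdm2, the ubiquitin ligase gene that closes the p53 loop, showed no single shift between genotypes. It was at 307, 95.3, 126, 96.3 and 96.4 CPM in KO replicates 1 to 5, against 145, 127 and 138 CPM in WT. The library labelled KO replicate 1 was above every WT library and the 4 other KO libraries were below every WT library. The log2 fold change over all libraries was 0.08 (SE 0.41, 95% interval -0.84 to 0.99, edgeR adjusted p = 0.978), and leaving out the library labelled KO replicate 1 gave -0.40 (adjusted p = 0.381). The value for KO replicates 3 to 5 against WT replicates 1 and 2 was close to that, -0.39 (SE 0.14, adjusted p = 0.112). In the other direction, edgeR gave 0.55 among libraries ending in br (adjusted p = 0.993) and 0.56 with the name ending as a term (adjusted p = 0.688). Mdm2 thus passed the threshold in none of the fits, and its sign turned negative in 5 of 19 of them.

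Trp53 and Zmat3 were both lowest in the 3 libraries that stood apart, which include both genotypes. Trp53, the gene of p53 itself, was at 58.3, 48.1, 90.2, 82.1 and 74.9 CPM in KO, against 99.5, 87.3 and 41.3 CPM in WT. Its 3 lowest values were those of WT replicate 3 and KO replicates 2 and 1, which stood apart in Malat1 share or receptor gene counts. The groups overlapped widely, and KO over WT was -0.10 on the log2 scale (SE 0.32, 95% interval -0.82 to 0.61, adjusted p = 0.962 in edgeR). Zmat3, which encodes a p53-induced RNA-binding protein, was at 70.4, 75.7, 116, 119 and 102 CPM in KO, against 125, 101 and 74.6 CPM in WT. Again WT replicate 3 and KO replicates 1 and 2 were lowest, and the other 5 libraries lay between 101 and 125 CPM. Zmat3 gave -0.05 for KO over WT on the log2 scale (SE 0.27, 95% interval -0.65 to 0.54, adjusted p = 0.976 in edgeR). Without WT replicate 3 and KO replicates 1 and 2 it was -0.04 (SE 0.13, 95% interval -0.34 to 0.26) for Zmat3 and -0.21 (SE 0.13, 95% interval -0.50 to 0.07) for Trp53. Among libraries ending in br the values were -0.54 for Zmat3 and -0.59 for Trp53 (edgeR adjusted p = 0.993 for both). With the name ending as a term they were -0.46 and -0.51 (edgeR adjusted p = 0.643 and 0.672). The part of RNA quality in these values was not tested.

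**Figure D3:**
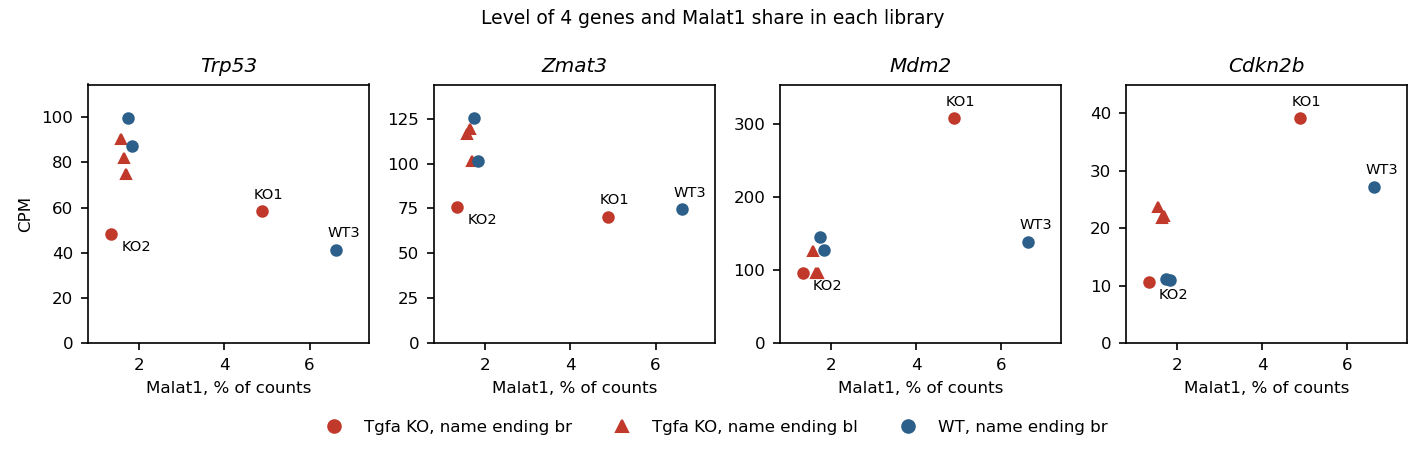
CPM of Trp53, Zmat3, Mdm2 and Cdkn2b against the percentage of counts taken by Malat1, 1 point per library (KO red, WT blue, circles br, triangles bl); KO replicates 1 and 2 and WT replicate 3 are named. Trp53 is at 41.3 to 58.3 CPM in these 3 libraries and 74.9 to 99.5 in the other 5, while Mdm2 is high in the library labelled KO replicate 1 alone.

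Bax, whose product permeabilizes mitochondria during cell death, was scarce and did not differ by genotype beyond the spread. It was at 7.52, 4.69, 5.38, 4.85 and 2.92 CPM in KO, against 4.87, 3.18 and 7.58 CPM in WT, from 27 to 102 counts per KO library and 48 to 97 per WT library. The highest values were in the library labelled KO replicate 1 and WT replicate 3, so the groups overlapped. KO over WT was -0.04 on the log2 scale (SE 0.41, 95% interval -0.96 to 0.89, adjusted p = 0.99 in edgeR). The annotation used for counting also holds Gm45808, a same-strand gene that shares 192 of the 1576 exon bases of Bax and has 0 counts in every library. The treatment of reads that match both is not stated in the labels, so the Bax level is uncertain.

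Cdkn2b, the gene of the CDK4 and CDK6 inhibitor p15INK4B, was at 39.1, 10.6, 23.7, 21.7 and 22.1 CPM in KO, against 11.2, 11 and 27.2 CPM in WT. Within the KO group, replicates 3 to 5 were close together and above WT replicates 1 and 2, while KO replicate 2 was below every WT library and WT replicate 3 was above all KO libraries except the library labelled KO replicate 1. In edgeR KO over WT was 0.52 on the log2 scale (SE 0.43, 95% interval -0.45 to 1.49, adjusted p = 0.918). Cdkn2b rose in the weighted limma fit, by 0.92 on the log2 scale (SE 0.23, adjusted p = 0.0348). It also rose in KO replicates 3 to 5 against WT replicates 1 and 2, to 198% of WT (log2 fold change 0.99, SE 0.17, edgeR adjusted p = 0.00879), where genotype and name ending cannot be told apart. The log2 fold change among libraries ending in br was 0.63 (adjusted p = 0.993). Over all alternatives adjusted p ran from 0.00879 to 1, and the value was -0.0104 without WT replicate 2.

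Each of these calls in the weighted fit was lost when any of 4 single libraries was left out. Without WT replicate 1, WT replicate 2, KO replicate 3 or KO replicate 4, Cdkn1a was -0.59, -1.06, -0.85 and -0.90, with adjusted p = 0.269, 0.498, 0.0775 and 0.0711 in limma. Without the same libraries, in that order, Cdkn2b was 0.47, 0.13, 0.88 and 0.92, with adjusted p = 0.486, 0.930, 0.122 and 0.110. Leaving out any of the other 4 libraries kept both calls, with adjusted p up to 0.0233 for Cdkn1a and up to 0.0399 for Cdkn2b. Over all genes, the 1243 calls of this fit became 222 and 160 when KO replicate 3 or 4 was left out, and 638 and 2 when WT replicate 1 or 2 was, a limit that holds for every call with library weights given here. Leaving out any other library gave 1290 to 1900 calls.

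Cdkn2a, which encodes p16INK4A and p19ARF, was barely detected at this age. It had 3, 12, 9, 13 and 4 counts in KO replicates 1 to 5, against 0, 5 and 4 counts in WT. The rate of counts on silent receptor genes would give 5.32 of these counts in KO replicate 2 and 2.14 in WT replicate 3, but 0.143 to 0.303 in the other KO libraries. In CPM the values were 0.221, 2.08, 0.563, 0.742 and 0.278 in KO, against 0, 0.331 and 0.313 in WT, so 3 of 5 KO libraries were above every WT library. The 0 in WT replicate 1 allows up to 0.164 CPM by counting error (3 counts of that library). Cdkn2a did not reach the count filter for the test. Without a filter its log2 fold change was 1.76 (edgeR adjusted p = 0.998). Its transcripts for p16INK4A and p19ARF share exons, and a count per gene does not separate them.

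Gdf15 was at the background in most libraries. It had 3, 20, 0, 1 and 0 counts in KO, against 0, 2 and 13 counts in WT. The largest counts, 20 in KO replicate 2 and 13 in WT replicate 3, came from the 2 libraries with the most counts on silent receptor genes, which would give 8.41 and 3.38 of them. In the remaining 6 libraries it had at most 3 counts. Libraries at 0 allow up to 0.195 and 0.217 CPM in KO replicates 3 and 5 and 0.164 CPM in WT replicate 1, and Gdf15 did not reach the count filter. Without a filter its log2 fold change was 0.83 (edgeR adjusted p = 0.998), and in br libraries alone it was 2.14 (adjusted p = 0.993).

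Of the whole set, 7 of the 9 genes reached the count filter and none passed the edgeR threshold, nor had an unadjusted p under 0.05, with all 8 libraries. Over all genes edgeR called 1 of 19239 (0.0052%). DESeq2 called none of the set, against 137 of 43007 genes with a p-value (0.319%, with 0.226% higher and 0.093% lower). These 43007 include genes that DESeq2 gave no adjusted p, as with Cdkn2a and Gdf15, and that could not be called. Unweighted limma voom called none of the set, with 1 of 7 at an unadjusted p under 0.05, and called none of all genes, with 1386 at an unadjusted p under 0.05. The fit with library weights called 2 of the 7, Cdkn2b higher and Cdkn1a lower, where 6.46% of all genes were called, 3.39% higher and 3.07% lower. The same genes were called in KO replicates 3 to 5 against WT replicates 1 and 2, where 10.6% of 17804 genes were called. The CPM ranges of KO and WT overlapped for all 7, whereas they did not overlap for 5.15% of all genes tested, 1.75% with KO below WT and 3.4% with KO above. The median log2 fold change of the 7 was -0.05 in edgeR, with 2 positive values, beside a median of 0.16 over all genes tested, of which 61.9% were positive.

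**Figure D4:**
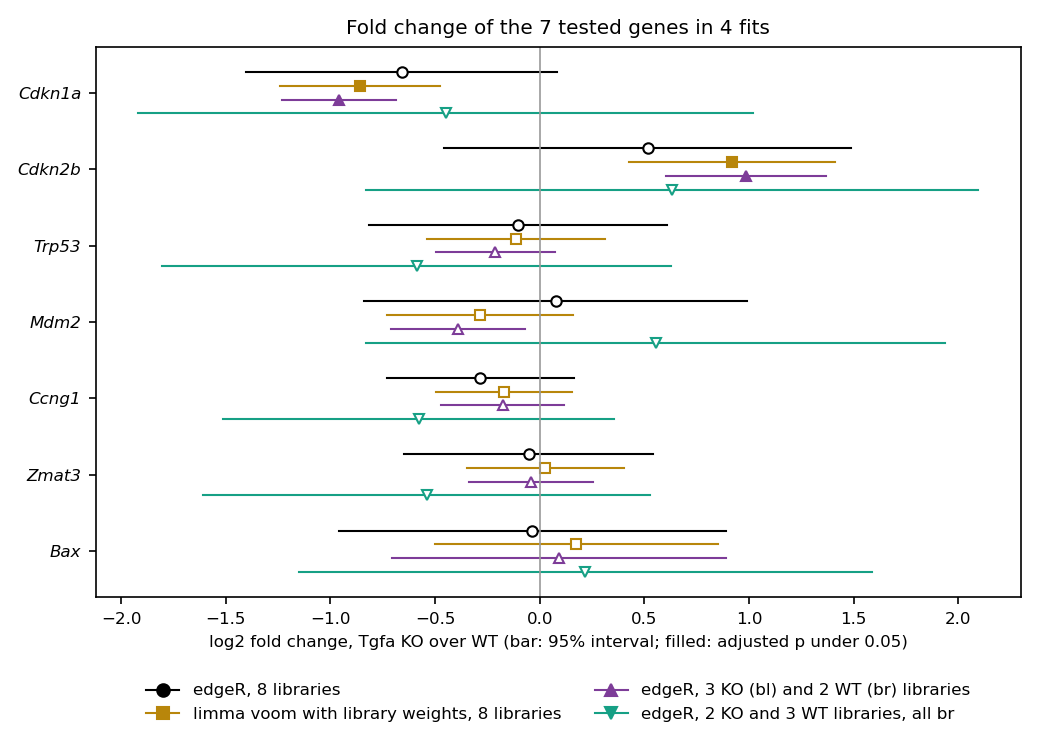
Log2 fold change of Tgfa KO over WT with 95% intervals for the 7 tested genes in 4 fits: edgeR on all 8 libraries (black), limma voom with library weights (gold), edgeR on KO replicates 3 to 5 against WT replicates 1 and 2 (purple) and edgeR on libraries ending in br (green); filled symbols have an adjusted p under 0.05. Cdkn1a (-0.86 and -0.96) and Cdkn2b (0.92 and 0.99) are filled in the same 2 fits, and no other gene is.

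Within the KO group, libraries with different name endings were compared, and no member passed the threshold with all KO libraries in the fit. In KO libraries ending in bl (n = 3), Trp53 averaged 82.4 CPM, against 53.2 CPM in those ending in br (n = 2), a log2 difference of 0.57 (SE 0.23, edgeR adjusted p = 0.271). Mdm2 averaged 106 CPM in bl, against 201 CPM in br (log2 difference -0.97, SE 0.47, adjusted p = 0.331). Cdkn1a averaged 200.3 CPM in bl and 263 CPM in br (-0.44, SE 0.44, adjusted p = 0.649). Without the library labelled KO replicate 1, which left KO replicate 2 alone in the br group, the sign of these last 2 differences turned, to 0.21 for Mdm2 and 0.64 for Cdkn1a. No gene passed the threshold in this comparison among 19026 tested, although 3339 had an unadjusted p under 0.05.

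Other genes of the pathway were followed in lists that surround the set. Of 30 other p53 target genes, all were tested and none passed in edgeR on 8 libraries, 3 having an unadjusted p under 0.05. Their median log2 fold change was -0.14 and 11 were positive, against a median of 0.16 and 61.9% positive over all genes tested. The smallest p-values were those of Pidd1, which encodes a scaffold for caspase 2, at 1.59 (SE 0.59, adjusted p = 0.683), and Polk, a translesion polymerase gene, at -0.68 (SE 0.28, adjusted p = 0.716). None of the 30 was called in the fit with library weights (median -0.28, beside -0.01 over all genes). In KO replicates 3 to 5 against WT replicates 1 and 2, 6 of the 30 were lower and none higher, where 5.32% of all genes tested were lower and 5.25% higher. These 6, named after their values were seen, were Sfn, which encodes the checkpoint protein 14-3-3 sigma (-1.04), the antiproliferative gene Btg2 (-1.19), the receptor gene Epha2 (-0.80), the phosphatase gene Ppm1d (-0.47), Phlda3 (-0.60) and Ak1 (-0.86). The 5 KO libraries had 315 to 497 CPM of Sfn, 95.2 to 370 CPM of Btg2, 119 to 360 CPM of Epha2 and 29 to 55.9 CPM of Phlda3, against 185, 199, 192 and 38.1 CPM in WT replicate 3, which is not in that comparison. Ak1 was at 7.74 to 14.8 CPM in the KO libraries, against 7.27 CPM in WT replicate 3. Ppm1d was at 36 to 89.6 CPM in the KO libraries, against 84.1 CPM in WT replicate 3, the highest of the 3 WT values. WT replicate 3 was thus below all KO libraries for Sfn and Ak1 and within their range for the other 4 genes.

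Among 15 regulators and relatives of p53 none passed in edgeR on 8 libraries, and the median was 0.08. Chek1, a checkpoint kinase gene, was at 8.82 ± 1.35 CPM in KO (SD, n = 5), against 4.14 ± 1.1 CPM in WT (n = 3) (log2 fold change 1.09, SE 0.3, edgeR adjusted p = 0.553). Trp73, the gene of the p53 relative p73, was at 4.27 CPM in the library labelled KO replicate 1 and 14.5 to 23.8 CPM in KO replicates 2 to 5, against 3.37 to 6.94 CPM in WT (log2 fold change 1.68, SE 0.52, adjusted p = 0.58). With library weights, where 3.39% of all genes tested were higher, 3 of the 15 rose: Chek1 (1.28, adjusted p = 0.0136), Trp73 (2.05, adjusted p = 0.0146) and, named after its values were seen, the kinase gene Chek2 (1.51, adjusted p = 0.0255).

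Of 18 other CDK inhibitor, cyclin, CDK, RB and E2F genes none passed in edgeR on 8 libraries (median 0.11), and the smallest p-values were those of the transcription factor genes E2f2 (0.68, adjusted p = 0.785) and E2f3 (0.47, adjusted p = 0.836). With library weights, where 3.39% of all genes tested were higher, only Cdkn2c, the gene of another inhibitor of CDK4 and CDK6, rose (0.87, adjusted p = 0.043). It was at 10.8, 5.04, 9.88, 10.5 and 10.4 CPM in KO and 4.65, 5.75 and 10.5 CPM in WT, so that, as for Cdkn2b, WT replicate 3 was high and KO replicate 2 low. Among 14 regulators of the Cdkn2a locus (median -0.25, none past the edgeR threshold), Rnf2, which encodes a Polycomb ubiquitin ligase, was at 45.8 ± 3.81 CPM in KO, against 65.7 ± 11.8 CPM in WT. Its log2 fold change was -0.52 (SE 0.2, edgeR adjusted p = 0.689). In the weighted fit, where 3.07% of all genes tested were lower, Rnf2 fell (-0.57, adjusted p = 0.0378). Ets1, a transcription factor gene, was -0.61 (SE 0.28, adjusted p = 0.811).

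Of 32 secreted factors of senescent cells, 28 were tested and none passed in edgeR on 8 libraries. Of the 28, 3 had an unadjusted p under 0.05, against 6.28% of all genes tested (1209 genes), and 18 were positive (64.3%, against 61.9% of all genes), with a median of 0.32. Igfbp4, an insulin-like growth factor binding protein gene, was at 34.1 ± 5.38 CPM in KO, against 10.8 ± 2.33 CPM in WT (1.66, SE 0.24, adjusted p = 0.22). Igfbp4 rose in DESeq2 (1.62, adjusted p = 9.0e-07), in edgeR without a filter (1.64, adjusted p = 0.0486) and in KO replicates 3 to 5 against WT replicates 1 and 2 (1.82, adjusted p = 0.00206). Ccl8, a chemokine gene, had 98 counts over the KO libraries and 0 over the WT libraries, which makes it at least 23-fold higher against a floor of 3 counts over the WT group. Without the library labelled KO replicate 1 this bound was 9.62-fold. It did not pass (adjusted p = 0.507), and its level was 4.94 CPM in the library labelled KO replicate 1 and 0.418 to 0.868 CPM in the KO libraries besides it. With library weights 3 of the 28 were higher and 1 lower, where 3.39% of all genes tested were higher and 3.07% lower. In that fit Igfbp4 (1.80), Igfbp7 (1.10) and the protease gene Plau (1.05) rose, the cytokine gene Il1b fell (-1.59), and the list median was -0.08. Igfbp7, Plau and Il1b were named after their values were seen.

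The remaining lists held no call in edgeR on 8 libraries with the count filter. All 8 nuclear and lysosomal senescence markers were positive (median 0.12, below the 0.16 of all genes tested, of which 61.9% were positive), but 4 of 8 were positive among br libraries. The list was not split by the direction each marker takes in senescent cells, so the shared sign gives no direction for senescence. The smallest p-values were those of Dpp4 (1.16, adjusted p = 0.734) and Hmgb2 (0.25, adjusted p = 0.921). In the BCL2 family, which holds the partners and antagonists of BAX, the median of 11 tested genes was -0.03, and Mcl1, an anti-apoptotic gene, was at 167 ± 40.2 CPM in KO, against 232 ± 16.3 CPM in WT (-0.48, adjusted p = 0.832). The scarce Bcl2a1b, which has near-identical relatives, was -2.22 (adjusted p = 0.881). The integrated stress response, through which Gdf15 can be induced without p53, had a median of 0.11 over 10 tested genes, with Vldlr at 0.80 (adjusted p = 0.772) and Asns at 0.48 (adjusted p = 0.81). With library weights, where 3.39% of all genes tested were higher and 3.07% lower, Vldlr rose (0.99, adjusted p = 0.0388). In the same fit Atf4, named after its values were seen, fell (-0.76, adjusted p = 0.0397). Of the immediate early genes, which respond to tissue handling, Fos was 0.44 and Fosb -0.47 (adjusted p = 0.938 and 0.936), and the summed CPM of the list was 1786 to 5567 in KO and 1338 to 6399 in WT. All 18 cell cycle genes were positive (median 1.38), none passed, and 14 had an unadjusted p under 0.05, against 6.28% of all genes tested and a median of 0.16 over them. Among br libraries 17 of the 18 were positive with a median of 0.81, beside 0.25 over all genes tested. There 1 of the 18 had an unadjusted p under 0.05 in edgeR, against 2.36% of all genes tested. In this list Tpx2, a spindle gene, was at 20.1 ± 7.67 CPM in KO and 7.11 ± 1.14 CPM in WT (adjusted p = 0.431), and the log2 fold change of Top2a, a topoisomerase gene, was 1.19 (adjusted p = 0.538).

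**Figure D5:**
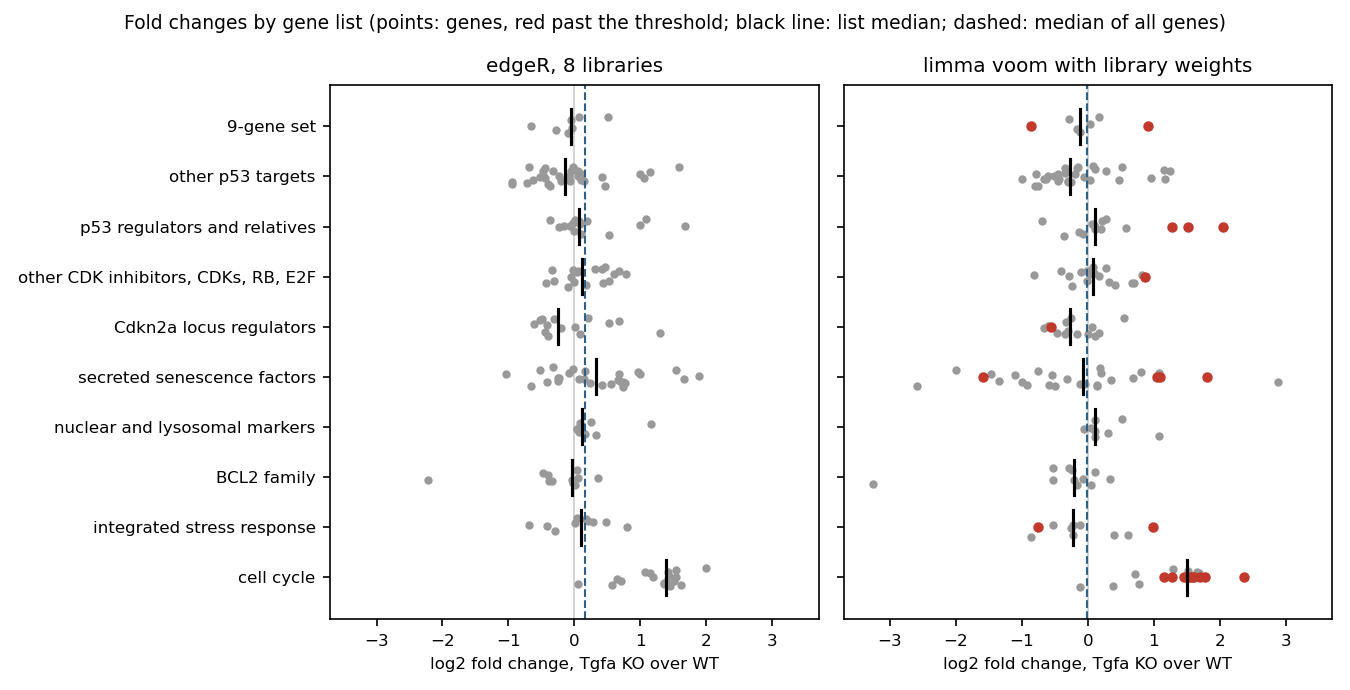
Log2 fold change of Tgfa KO over WT for each tested gene of 10 lists in edgeR on 8 libraries (left) and in limma voom with library weights (right); red points passed the threshold, black lines are list medians and dashed lines the median of all genes tested (0.16 left, -0.01 right). Ccl8, which has no WT count, is not drawn. No list gene is red on the left, and on the right 10 of 18 cell cycle genes and none of 30 other p53 targets are, where 6.46% of all genes tested passed.

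Markers of other cell types gave the following levels beside these results. Summed CPM of 8 myeloid and Langerhans cell markers was 191 to 666 in KO and 475 to 690 in WT, and that of 5 dendritic epidermal T cell markers 17.8 to 73.1 in KO and 20.2 to 45.9 in WT. Endothelial markers summed to 2.44 to 5.68 CPM in 4 KO libraries and 54 CPM in KO replicate 2, against 1.57 to 11.9 CPM in WT, and muscle markers to 0.188 to 5.45 CPM in 4 KO libraries and 31.4 CPM in KO replicate 2, against 1.74 to 10.2 CPM in WT. Fibroblast markers summed to 3.94 to 74 CPM in KO and 34.1 to 39.6 CPM in WT, melanocyte markers to 7.89 to 23.1 and 8.13 to 18.3 CPM, and sebocyte markers to 606 to 1163 and 798 to 1220 CPM. In the weighted fit Cd207, the Langerhans cell gene of langerin, fell (-1.18, adjusted p = 0.0192), while the differentiation keratin gene Krt1 (1.33, adjusted p = 0.0264) and the sebocyte-list gene Mgst1 (1.58, adjusted p = 0.0247) rose. None of these 3 passed in edgeR on 8 libraries (adjusted p = 0.716, 0.713 and 0.421), and they were named after their values were seen. They do not give the direction of their lists. In the weighted fit 4 of 8 myeloid and Langerhans cell markers, 3 of 6 suprabasal markers and 3 of 5 sebocyte markers were positive. No listed marker was at 0 in all libraries. Their part in the values of the 9 genes was not tested.

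Genes with the most similar pattern were found for each tested gene by the correlation of log2 CPM over the 8 libraries, among 12545 genes with a mean of at least 2 CPM. For Cdkn1a these were Rhod and Cdca4 (Pearson r = 0.987 and 0.986, Spearman rho = 0.976 for both), for Trp53 Cyb5r3 and Wls (r = 0.99 and 0.987), for Zmat3 Tsen34 and Txndc11 (r = 0.984 and 0.981), and for Ccng1 Gtf2a2 and Tgfbr3 (r = 0.988 and 0.983). Mdm2 was most like the immediate early gene Jun and Nfkbid (r = 0.978 and 0.972), and without the library labelled KO replicate 1 these values were 0.905 for both. Cdkn2b was most like Cnot3 and H1f0 (r = 0.981 and 0.98), and the pattern of Bax, the tested gene with the lowest counts, had r = 0.929 with that of Apaf1. These are the highest of all such values over 8 libraries that share depth, normalization and quality differences, and are given as a description.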

How the data were processed

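Bulk RNA sequencing of total RNA from epidermis gave 8 libraries, 5 Tgfa KO and 3 WT, grouped by the genotype label. The deposited values are raw read counts per gene, made by the authors with STAR 2.5.2b, featureCounts (Subread 1.5.2) and Trimmomatic 0.36, per the submitters' processing notes, which name GRCh38 and GRCm38 without roles; 91.4% of genes have the start and end of GENCODE M21 on GRCm38. No source used here gives the strand or multi-mapping settings. The kept genes, 19239 by the edgeR expression filter, were tested with the quasi-likelihood test of edgeR 4.0.16 (R 4.3.3), TMM normalization and Benjamini-Hochberg adjustment over all of them, at an adjusted p under 0.05. Unless another tool is named, an adjusted p is from that test. CPM use TMM-scaled library sizes, and log2 CPM a prior count of 2. TPM were computed from counts per exon length, scaled to sum to 1000000 in each library. Alternatives used DESeq2 1.42.0, limma 3.58.1 (voom, with and without library weights), other filters and scalings, subtraction of the receptor gene rate, the name ending as a term, and fewer libraries. Replicate numbers follow deposit order and pair nothing. Named genes were Tgfa, all 9 members, and in each list, except those of cell type markers, the genes that passed or else the 2 smallest p-values. For each tested member, the 2 most correlated genes were also named, except 1 that is not reported here. Others are said to be named after their values were seen. The members and lists were chosen with earlier results of these data known. On simulated counts with the observed spread (19239 genes, KO against WT), edgeR recovered 39% of genes changed by 2 on the log2 scale and 3% of those changed by 1, so small changes are mostly not detectable here. Intervals and floors cover counting error only where they rest on counts of 1 library.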

Additional observations from a re-analysis of the deposited data

Results flagged for a closer look

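Within the 5 KO libraries, single libraries lay far from the others for 5 of 19 quantities checked (gap over range above 0.71). A chance rate of about 1 in 20 assumes independent normal values, which these are not, so no excess is read from this count. The library labelled KO replicate 1 had 307 CPM of Mdm2, while the other 4 KO libraries had 95.3 to 126 CPM, against 127 to 145 CPM in WT. The same library also had a Malat1 share of 4.88%. The other 4 quantities were all highest in KO replicate 2, the shallowest library and the one with 4.54 counts per kb on silent receptor genes. There Cdkn2a was at 2.08 CPM, against 0.221 to 0.742 CPM in the other KO libraries. Gdf15 was at 3.47 CPM, against 0 to 0.221 CPM. Endothelial markers summed to 54 CPM, against 2.44 to 5.68 CPM, and muscle markers to 31.4 CPM, against 0.188 to 5.45 CPM. The part of depth and background in these values was not tested.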

How the results depend on the processing

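The log2 fold change of Cdkn1a was negative in all 19 alternatives (-0.96 to -0.44), as was that of Ccng1 (-0.58 to -0.17). The count of all genes past the threshold was 1 in edgeR on 8 libraries, 137 in DESeq2 (which made 52 false calls on simulated counts), 0 in unweighted voom, 1243 with library weights (2 without WT replicate 2, up to 1900 without the library labelled KO replicate 1), 0 with RLE normalization, 9 without a filter, 0 in br libraries alone, 1883 in the 5 libraries left without WT replicate 3 and KO replicates 1 and 2, and 0 to 1 without single libraries. The median log2 fold change of all genes was 0.16 in edgeR and -0.01 with library weights, and positive values were 61.9% and 49.2%. The fit with library weights called 6.46% of all genes tested. With these weights the lists gave calls for 2 of the 7 tested genes of the set, 3 of 15 p53 regulators, 1 of 18 in the CDK inhibitor list, 1 of 14 Cdkn2a-locus regulators, 4 of 28 secreted factors, 2 of 10 stress response genes, 10 of 18 cell cycle genes, and 1 each of 6 suprabasal (Krt1), 8 myeloid (Cd207) and 5 sebocyte (Mgst1) markers. In the 5 libraries, where 10.6% of all genes tested were called, these counts were 2, 5 (Chek1, Chek2, Trp73 and Atm higher, Sirt1 lower), 2 (Cdkn2c and Rbl1 higher), 2 (Rnf2 and Ets1 lower), 3 (Igfbp4 higher, Il1b and Igfbp3 lower), 3 (Vldlr higher, Atf4 and Ppp1r15a lower), 5 (Plk1, Foxm1, Tpx2, Aurka and Bub1 higher), 2 (Krt1 higher, Krtdap lower), 1 (Cd207) and 1 (Mgst1), beside 6 other p53 targets, 1 BCL2 family gene (Mcl1, lower) and 3 basal markers (Krt14 higher, Krt15 and Itga6 lower). DESeq2, which called 0.319% of all genes with a p-value, called 1 secreted factor (Igfbp4), 2 cell cycle genes (Tpx2 and Top2a) and 1 sebocyte marker. The fit without a filter called 1 secreted factor (Igfbp4).

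Cdkn1a passed at -0.86 with library weights and -0.96 in the 5 libraries, and Cdkn2b at 0.92 and 0.99. Signs turned for Mdm2 (-0.10 in voom, -0.28 with weights, -0.39 in 5 libraries), Bax (0.017, 0.17, 0.092, and 0.24 with the name ending as a term and 0.22 in br libraries), Zmat3 (0.026 with weights), Hmgb2 (-0.049 in 5 libraries) and Fosb (0.27 in voom). With the name ending as a term and in br libraries alone, in that order, they turned for Fos (-0.34, -0.42), Atm (-0.12, -0.25), Atf4 (0.023, 0.015) and Il1b (0.24, 0.19), and in br libraries for Rbl1 (-0.047). Ppp1r15a was 0.011 in edgeR and -0.0135 in DESeq2, -0.52 in voom, -0.86 with weights, -0.0135 with RLE, -0.14 with library totals, -0.00885 with the CPM filter, -0.0214 with background subtracted and -1.01 in 5 libraries. The cause was not tested.

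Without single libraries, ranges were -0.0104 to 1.08 for Cdkn2b, -0.41 to 0.16 for Trp53, -0.40 to 0.19 for Mdm2, -0.57 to 0.32 for Bax, -0.25 to 0.17 for Zmat3, -1.01 to 0.53 for Fosb, -0.10 to 1.20 for Fos, -0.00224 to 0.84 for Cdkn2c and -1.13 to 0.40 for Ppp1r15a. Between KO name endings they were -0.995 to 0.64 for Cdkn1a, -0.82 to 1.14 for Cdkn2b, 0.47 to 0.83 for Trp53, -1.56 to 0.21 for Mdm2, 0.22 to 0.59 for Ccng1 and 0.47 to 0.65 for Zmat3, fits chosen after seeing the data, as were those that left single libraries out of the weighted fit. In that comparison, leaving out KO replicate 1 or 2 left only the other in the br group. No paired analysis was possible because replicate numbers follow deposit order and mark no shared animal or batch.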
